A study of Mus musculus with 26 samples.

Results

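This comparison set reporter-negative pre-granulocyte-macrophage progenitors (PreGM GFP-) against lymphoid-primed multipotent progenitors (LMPP) of mouse bone marrow. Its 7 arrays, 3 of PreGM GFP- and 4 of LMPP, were chosen by sample title from 26 arrays of 8 stem and progenitor groups, and 19938 genes were compared. All groups came from mice of 8 to 15 weeks that carried the Gata1-EGFP transgene on 1 allele (Tg/+), a reporter whose green fluorescence marks cells in which the Gata1 promoter is active. PreGM GFP- cells were sorted as lineage-negative and cKit+, negative for Sca1, CD41, FcgRII/III, CD150 and CD105, and negative for the reporter. LMPP were lineage-negative, cKit+, Sca1+, CD150-, high for Flt3 and also reporter-negative. Both groups therefore lacked the reporter signal, and they differed by gate in Sca1. Flt3 was part of the gate only for LMPP, and CD41, FcgRII/III and CD105 only for PreGM GFP-. A second pair of reporter-negative groups, which shared no array with this one, was used beside it. It set granulocyte-macrophage progenitors (GMP GFP-, 4 arrays, Sca1-, CD41- and FcgRII/III+) against haematopoietic stem cells (HSC GFP-, 3 arrays, Sca1+, CD150+ and Flt3-). The labels do not say whether the arrays of a group came from separate mice or how many mice were pooled, so the p-values measure the spread between arrays, which may be technical. For p-values and SEs alike, that spread was estimated from all 26 arrays of the 8 groups, not from these 7 alone. An SE can therefore be smaller than the spread of the 7 arrays by themselves would give.

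LMPP are multipotent cells that have largely given up platelet and red cell potential but can still form lymphoid cells, granulocytes and macrophages, and they transcribe some lymphoid genes at a low level before commitment. PreGM cells are the earliest progenitors in the marrow that form mainly granulocytes and macrophages and lie upstream of GMP. Commitment to these lineages is known to depend on C/EBP alpha and PU.1, which switch on genes for the primary granules of neutrophils, where the serine proteases and myeloperoxidase are stored, and genes of monocytes, while stem cell and lymphoid genes are turned down.

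Signals were log2 values per gene and array, and the median of all values, 6.61, served as the level under which a signal was treated as low. The 26 arrays had medians between 6.42 and 6.7. A gene was called where its adjusted p in limma, fitted to all 26 arrays with Benjamini-Hochberg adjustment over all genes, was under 0.05. The sorted genes followed their gates in part. Of 10 measured genes of sort markers, 1 was called higher and 1 lower, Fcgr3 and Flt3, given next. The difference of the groups in the Sca1 gate is therefore not shown by a call. Flt3, the receptor used to select LMPP, was at 10.28, 9.7 and 10.09 on the PreGM GFP- arrays, against 11.24, 11.22, 11.64 and 11.64 on the LMPP arrays. Gata1 stayed near the median signal in both groups, with 6.36, 6.7 and 7.14 on the PreGM GFP- arrays and 6.51, 6.69, 6.57 and 6.49 on the LMPP arrays. Fcgr3, an Fc receptor of the class that the PreGM gate selects against, was at 7.39, 7.54 and 7.53 in PreGM GFP- and 6.33, 6.42, 6.37 and 6.13 in LMPP, while GMP GFP-, gated as positive, averaged 9.52. It was called higher by 1.18, a call lost with PreGM GFP- array 2 left out (adjusted p = 0.0561). PreGM GFP- array 2 had the widest residuals of the 7 arrays (SD 0.316, against 0.185 to 0.289 on the others), and LMPP array 2 carried signals of neutrophil genes that the other 3 LMPP arrays did not. Results that rest on these arrays are given below also without them.

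In PreGM GFP-, 79 genes rose (0.396% of those tested) and 95 fell (0.476%) relative to LMPP, 174 genes in all (0.873%). Of these, 47 rose and 62 fell by at least 1 log2 unit. The arrays of the groups did not overlap for 169 of the 174 called genes, where 7.49% of all genes had arrays that did not overlap. With each array centred on its own median, 94 genes rose and 60 fell. With only the 2 groups in the fit the counts were 33 and 33, and with arrays weighted by precision they were 19 and 27. Leaving out PreGM GFP- array 1, 2 or 3 gave 49 rises and 86 falls, 74 and 45, and 84 and 59 in turn. Leaving out LMPP array 1, 2, 3 or 4 gave 67 and 59, 64 and 105, 60 and 50, and 57 and 64. The genes that rose most, mainly myeloid ones, were Ms4a3, F13a1, Ly86, S100a8, Cpa3, Ctsg, Elane, Igsf6, Ms4a6c, Hp, Ccr2, Cxcr2, Anxa3, Id2 and Mcpt8, which rose by 2.04 to 3.69. The falls were smaller and more mixed: Stxbp4, Tspan6, Tnip3, Cd33, Vldlr, Wfdc17, Ccl3, Myl10, Il18, Hlf, Gsta4, Iigp1, Kynu, Myof and Rtp4 changed by -2.42 to -1.58. For 23 of the rises the LMPP mean, and for 42 of the falls the PreGM GFP- mean, was below the median signal. Such values are given as differences of signal, with no fold, since RNA and signal may part at low levels.

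**Figure D1:**
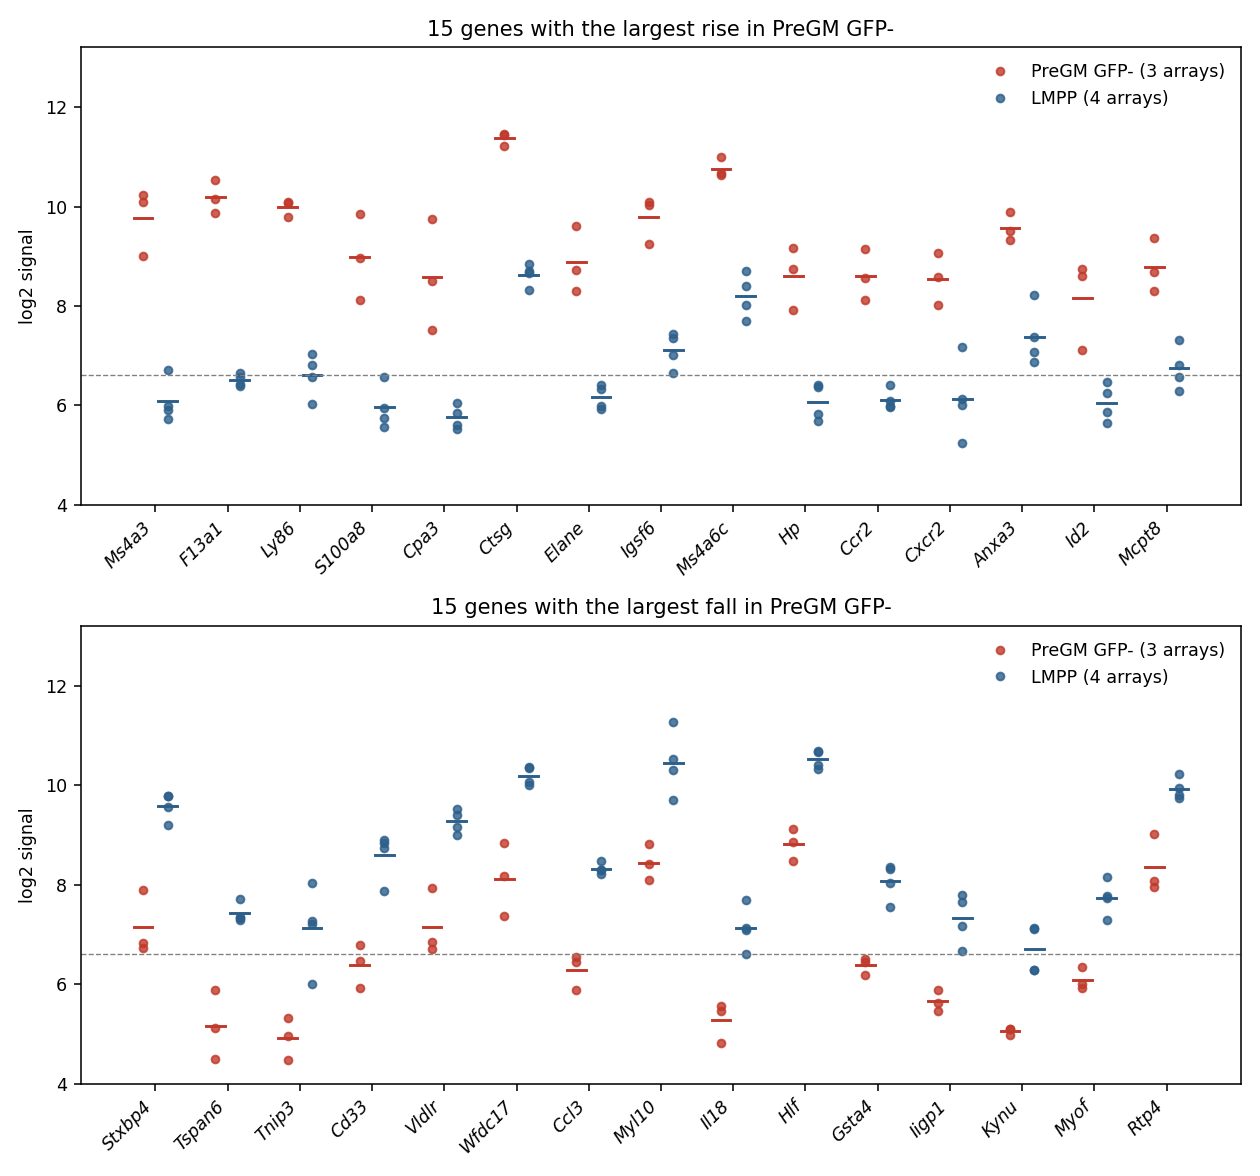
Log2 signal (y axis) on each array of the 15 called genes with the largest rise (top) and the 15 with the largest fall (bottom), with PreGM GFP- left in red (3 arrays) and LMPP right in blue (4 arrays), each point 1 array, short bars group means and the dashed line the median of all values, 6.61. The 30 genes were chosen among called genes whose arrays do not overlap. Ms4a3 and F13a1 lie near or below the dashed line on every LMPP array, and the 3 PreGM GFP- arrays lie furthest apart for Cpa3, from 7.52 to 9.75.

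The primary granule list held more called genes than any other list examined. Its members also include genes for other proteins, such as the membrane proteins Ms4a3 and Igsf6, the adaptor subunit Ap3s1 and the chaperone Calr. The lists were chosen with earlier results of these data known. Of 25 measured members, 11 rose and 0 fell, with a median difference of 0.54 over the list, against 0.01 over all genes tested. At an unadjusted p under 0.05 in limma, 17 were higher and 0 lower, where 978 of all 19938 genes were higher (4.91%) and 787 lower (3.95%), the shares to read such counts of the other lists against. Ms4a3, a membrane protein of granulocyte-macrophage progenitors, was at 10.09, 9.0 and 10.23 on the 3 PreGM GFP- arrays, against 5.9, 5.99, 6.71 and 5.73 on the 4 LMPP arrays. Every PreGM GFP- array was more than 2 units above the highest LMPP array, and the difference was 3.69 ± 0.27 (SE, adjusted p = 6.93e-08 in limma). Ctsg, the granule protease cathepsin G, was at 11.43, 11.22 and 11.46 in PreGM GFP- and 8.66, 8.85, 8.7 and 8.31 in LMPP. Its level in LMPP was already well above the median signal, and it rose 6.7-fold (adjusted p = 0.000156). Elane, neutrophil elastase, was at 8.72, 8.3 and 9.61 in PreGM GFP- and 5.98, 6.33, 5.92 and 6.42 in LMPP, so that all LMPP arrays were below the median signal and all PreGM GFP- arrays above it.

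Mpo, the myeloperoxidase of the same granules, was at 13.04, 12.79 and 13.19 in PreGM GFP-, and it was already high in LMPP, at 11.31, 11.41, 11.53 and 11.07. The arrays were tightly grouped within each group and did not overlap, and the rise was 3.19-fold (adjusted p = 0.000322). Prtn3, proteinase 3, rose 2.82-fold, with 9.26, 9.29 and 9.13 in PreGM GFP- and 7.97, 7.85, 7.83 and 7.26 in LMPP. Hp, the haemoglobin-binding protein haptoglobin, was at 9.17, 7.91 and 8.74 in PreGM GFP- and 6.41, 6.37, 5.69 and 5.83 in LMPP. Igsf6, an immunoglobulin superfamily membrane protein of myeloid cells, was at 9.26, 10.02 and 10.1 in PreGM GFP- and 6.65, 7.01, 7.35 and 7.44 in LMPP. It rose 6.4-fold. Ap3s1, a subunit of the AP-3 adaptor that sorts proteins to lysosome-related granules, was at 10.9, 10.5 and 10.96 in PreGM GFP- and 9.1, 8.5, 8.61 and 8.87 in LMPP. It rose 4.04-fold (adjusted p = 8.3e-05). Cst7 (cystatin F, an inhibitor of cysteine proteases), Trem3 and the chaperone gene Calr rose by 1.13, 0.92 and 0.62. The members without a call included Nkg7 at 1.06 (adjusted p = 0.263) and Plac8 at 0.46 (adjusted p = 0.347), both already well expressed in LMPP, and 1 of the 25 members had a difference below 0. The count of members that rose lay between 7 and 11 over the alternatives tried. The call of Calr was lost with PreGM GFP- array 3 left out (adjusted p = 0.0721). Cst7 lost its call with PreGM GFP- array 1 or 3 or LMPP array 1, 2, 3 or 4 left out (adjusted p = 0.0571 to 0.181), and Trem3 with PreGM GFP- array 2 or 3 or LMPP array 1, 3 or 4 left out (adjusted p = 0.0551 to 0.131).

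The promoters of 3 of these genes are shown because the genes moved together. They are RefSeq sequences on GRCm38.p6, from 250 bases before the start to 50 after it on the gene's strand. Capitals mark letters that match a searched motif on either strand: TTGCNNA for C/EBP, GAGGAAG for PU.1, TGTGGT for Runx, AACGG for Myb and CAGNTG for the E-box. Ms4a3 was among the 3 largest rises, while Elane and Mpo were picked after their values were seen. The Ms4a3 window (chr19:11640802-11641101, minus strand) had 2 matches to the C/EBP motif near its end and 1 to the E-box.
Ms4a3: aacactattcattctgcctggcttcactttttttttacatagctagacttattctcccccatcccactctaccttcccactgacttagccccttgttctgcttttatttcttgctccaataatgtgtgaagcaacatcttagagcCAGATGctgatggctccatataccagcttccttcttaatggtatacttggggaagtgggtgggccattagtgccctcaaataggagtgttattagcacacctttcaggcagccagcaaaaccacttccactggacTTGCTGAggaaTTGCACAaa
The Elane window (chr10:79886062-79886361, plus strand) held 1 match each to the PU.1 and Myb motifs.
Elane: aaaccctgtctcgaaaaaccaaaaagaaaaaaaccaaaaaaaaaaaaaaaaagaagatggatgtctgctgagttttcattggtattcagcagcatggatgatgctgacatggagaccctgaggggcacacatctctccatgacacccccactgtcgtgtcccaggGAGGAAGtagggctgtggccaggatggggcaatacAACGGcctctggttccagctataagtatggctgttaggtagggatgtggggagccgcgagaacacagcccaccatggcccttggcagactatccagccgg
The Mpo window (chr11:87793534-87793833, plus strand) held 2 matches to the PU.1 motif in its first part.
Mpo: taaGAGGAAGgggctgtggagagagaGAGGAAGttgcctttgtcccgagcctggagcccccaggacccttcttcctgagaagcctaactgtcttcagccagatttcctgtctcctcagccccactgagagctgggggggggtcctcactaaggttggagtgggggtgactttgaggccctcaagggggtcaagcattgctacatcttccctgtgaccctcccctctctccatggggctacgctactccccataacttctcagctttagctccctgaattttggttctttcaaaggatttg

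Several monocyte and macrophage genes also rose. Of 27 measured members 7 rose and 0 fell, with a median difference of 0.58. At an unadjusted p under 0.05 in limma 14 were higher and 0 lower, against 4.91% and 3.95% of all genes. F13a1, the A subunit of coagulation factor XIII, which monocytes make, was at 9.87, 10.54 and 10.15 in PreGM GFP- and 6.58, 6.38, 6.66 and 6.44 in LMPP. The LMPP arrays lay close together at about the median signal, and each PreGM GFP- array was over 3 units higher than any of them (difference 3.67 ± 0.39, SE, adjusted p = 7.5e-06). Ly86, which encodes MD-1, the partner of the Toll-like protein RP105, was at 9.79, 10.1 and 10.07 in PreGM GFP- and 7.04, 6.82, 6.58 and 6.03 in LMPP, a difference of 3.37 (adjusted p = 2.22e-06). Ccr2, the receptor through which monocytes follow Ccl2 out of the marrow, was at 9.14, 8.56 and 8.12 in PreGM GFP- and 6.42, 6.0, 6.09 and 5.97 in LMPP. It was low on every LMPP array, and its call was lost with PreGM GFP- array 1 left out (adjusted p = 0.0539).

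Ms4a6c, a relative of Ms4a3, was clearly present in both groups, with 10.67, 10.99 and 10.63 in PreGM GFP- and 8.4, 7.71, 8.7 and 8.02 in LMPP, and rose 5.88-fold (adjusted p = 0.0306). Its arrays did not overlap, as the rule for the largest rises required. The call was lost in 9 of 24 alternatives, among them with PreGM GFP- array 1, 2 or 3 or LMPP array 1, 2 or 4 left out (adjusted p = 0.061 to 0.113). Clec12a, an inhibitory lectin receptor of myeloid cells, rose by 1.1, Ms4a4c by 1.14 and Apoe, the lipid carrier of macrophages, by 1.02. The call of Clec12a was lost with PreGM GFP- array 1, 2 or 3 or LMPP array 1, 3 or 4 left out (adjusted p = 0.0628 to 0.122), and that of Ms4a4c with PreGM GFP- array 1 or 3 or LMPP array 2, 3 or 4 left out (adjusted p = 0.0702 to 0.19). Csf1r, the receptor for macrophage colony-stimulating factor, was at 8.52, 7.13 and 8.05 in PreGM GFP- and 7.07, 7.17, 7.29 and 6.78 in LMPP, so that PreGM GFP- array 2 overlapped the LMPP arrays, and it was not called (0.82, adjusted p = 0.22). Without that array it was (adjusted p = 0.0291). Cybb, the heavy chain of the phagocyte oxidase, was higher on all 3 arrays without a call (1.18, adjusted p = 0.276), and was called in 1 of 24 alternatives. Of the 21 measured dendritic cell genes 0 rose in limma and 1, Flt3, fell, and without PreGM GFP- array 3 there were 2 rises. The MHC class II gene H2-Aa was at 9.39, 8.97 and 8.77 in PreGM GFP- and 7.65, 8.08, 7.73 and 7.1 in LMPP, which did not overlap, yet it missed the threshold (adjusted p = 0.203). At an unadjusted p under 0.05 in limma 6 genes of the dendritic list were higher and 2 lower, against 4.91% and 3.95% of all genes. The count of monocyte genes that rose fell to 3 without PreGM GFP- array 1, 4 without PreGM GFP- array 3, 4 without LMPP array 4 and 2 with arrays weighted by precision. F13a1 and Ly86, the other members of the 3 largest rises, lie on chromosome 13. The F13a1 window (chr13:37050195-37050494, minus strand, the first of 2 RefSeq starts) held 2 matches to the PU.1 motif and 1 to the E-box.
F13a1: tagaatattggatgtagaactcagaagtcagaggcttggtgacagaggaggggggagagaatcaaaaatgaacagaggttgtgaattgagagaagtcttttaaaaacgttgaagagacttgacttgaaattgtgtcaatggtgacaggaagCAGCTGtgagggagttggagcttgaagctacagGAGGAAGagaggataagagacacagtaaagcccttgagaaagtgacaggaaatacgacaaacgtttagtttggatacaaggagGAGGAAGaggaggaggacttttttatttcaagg
The Ly86 window (chr13:37345095-37345394, plus strand) held no match to any of the 5 motifs and is printed without capitals.
Ly86: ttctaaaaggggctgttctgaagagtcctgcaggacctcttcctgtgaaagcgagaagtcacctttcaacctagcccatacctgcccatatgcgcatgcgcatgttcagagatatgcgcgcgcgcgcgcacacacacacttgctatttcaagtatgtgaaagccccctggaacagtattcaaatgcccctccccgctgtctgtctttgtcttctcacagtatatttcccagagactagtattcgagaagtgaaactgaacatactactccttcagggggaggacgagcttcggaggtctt

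**Figure D2:**
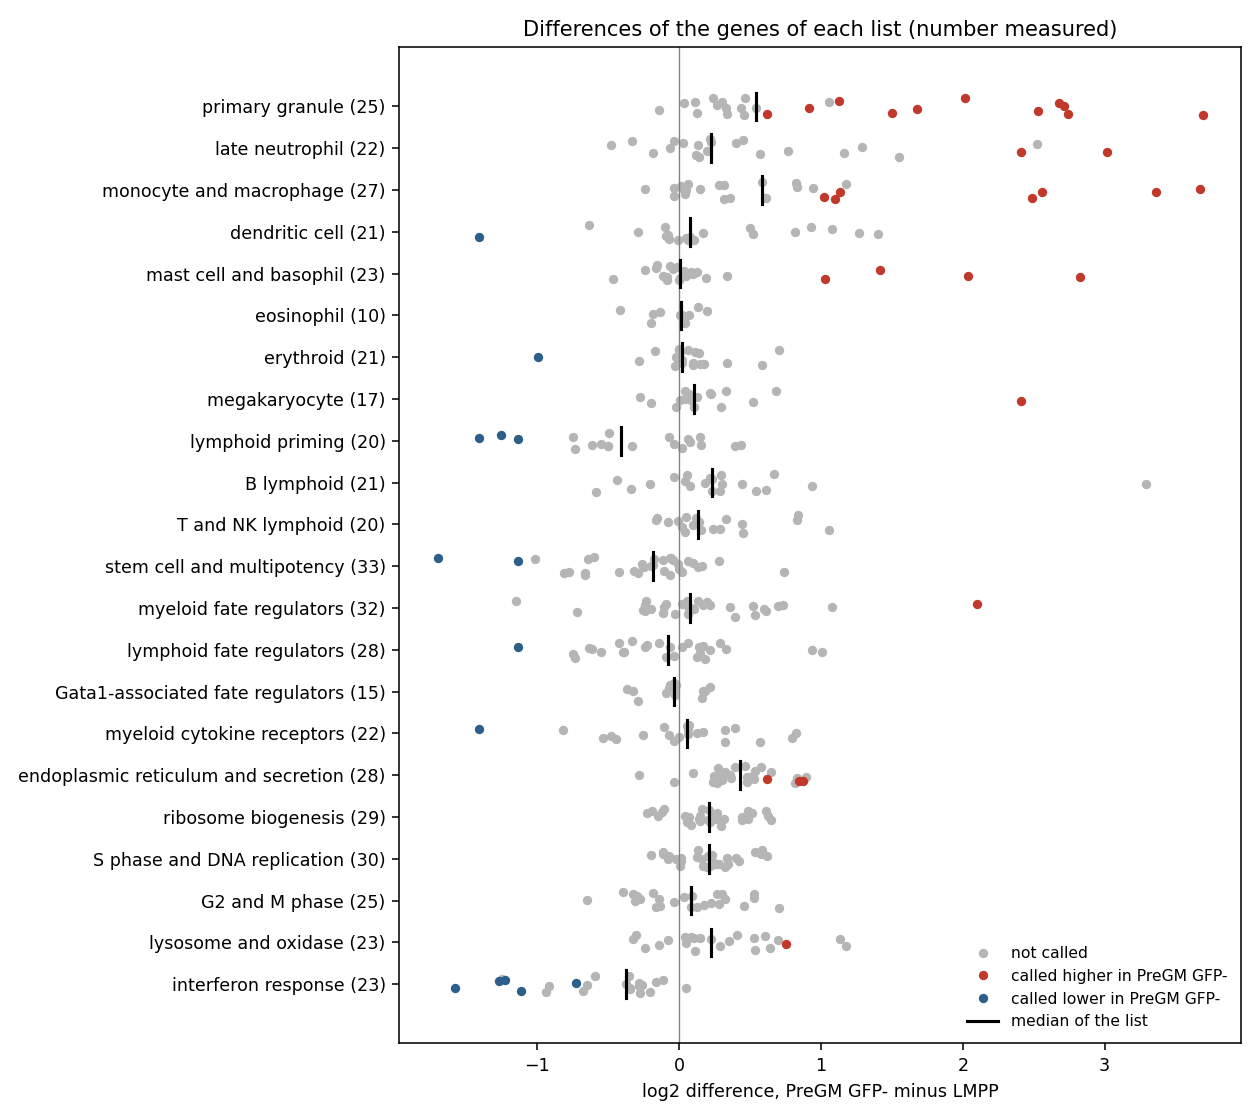
Log2 difference, PreGM GFP- minus LMPP (x axis), of each measured gene of 22 gene lists (one line each, number of genes in brackets), with genes called higher in red, called lower in blue and not called in grey, and a black bar at each list's median. Red points gather in the primary granule (11 of 25), monocyte (7 of 27) and mast cell (4 of 23) lists, and blue points in the interferon (5 of 23) and lymphoid priming (3 of 20) lists.

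Genes of mast cells and basophils rose in part, with 4 of 23 measured members called higher and 0 lower, and a list median of 0.01, as over all genes. Cpa3, the carboxypeptidase of mast cell granules, was at 9.75, 7.52 and 8.49 in PreGM GFP- and 5.86, 5.53, 6.06 and 5.6 in LMPP. The PreGM GFP- arrays were spread over more than 2 units, with array 1 highest, but all stood above the LMPP arrays (difference 2.83 ± 0.42, SE, adjusted p = 0.000731). Mcpt8, a granule protease of mouse basophils, was at 9.36, 8.68 and 8.31 in PreGM GFP- and 6.56, 6.29, 7.33 and 6.81 in LMPP. It rose 4.1-fold (adjusted p = 0.00428). Slc18a2, the vesicular transporter that loads histamine and other monoamines, was at 8.24, 8.39 and 7.82 in PreGM GFP- and 7.1, 6.84, 6.57 and 6.44 in LMPP (adjusted p = 0.000158). Hdc, which makes histamine, was near the median signal, at 7.15, 6.35 and 6.98 in PreGM GFP- and 5.68, 5.87, 5.77 and 5.86 in LMPP. The remaining members, among them the IgE receptor chains and the tryptases, gave differences from -0.46 to 0.34 without a call, and 14 of the 23 members had means below the median signal in both groups. The mean level of the whole list ranged from 6.31 to 6.37 on the PreGM GFP- arrays and from 6.0 to 6.12 on the LMPP arrays. Whether a few cells of another kind in the gate had a part in these rises was not tested. In bulk arrays more cells of a type and more RNA per cell cannot be told apart.

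Late neutrophil genes gave 2 calls among 22, both rises. At an unadjusted p under 0.05 in limma 6 were higher and 1 lower, against 4.91% and 3.95% of all genes, so that the 1 of 22 is near the share of all genes. S100a8, a subunit of calprotectin, was at 8.12, 9.85 and 8.96 in PreGM GFP- and 5.57, 6.57, 5.75 and 5.95 in LMPP, with a difference of 3.01 ± 0.58 (SE, adjusted p = 0.00892). Without PreGM GFP- array 2 it was 2.58 with an adjusted p of 0.0761. Cxcr2, a receptor for chemokines that draw neutrophils, was at 9.06, 8.02 and 8.58 in PreGM GFP- and 5.24, 7.18, 6.0 and 6.13 in LMPP (adjusted p = 0.00238). S100a9, the partner of S100a8, was at 9.59, 9.9 and 9.98 in PreGM GFP-, and in LMPP it was low on arrays 1, 3 and 4 and as high as in PreGM GFP- on array 2, at 6.42, 10.06, 6.33 and 6.42. It was not called (2.52, adjusted p = 0.192), and without LMPP array 2 the difference was 3.44 with an adjusted p of 0.00915. Ngp, a protein of secondary granules, showed the same array pattern in LMPP, at 5.8, 7.96, 5.88 and 6.17, against 7.51, 7.77 and 8.72 in PreGM GFP-, and was not called. Mean levels of the 22 late neutrophil genes were 6.49 to 6.89 on the PreGM GFP- arrays and 5.97 to 6.40 on the LMPP arrays, with LMPP array 2 the highest of the LMPP arrays, and 10 of the 22 genes had means below the median signal in both groups. Whether mature cells had a part in these levels was not tested. Anxa3, an annexin of neutrophil granules outside the list, was at 9.51, 9.32 and 9.89 in PreGM GFP- and 7.08, 8.23, 7.37 and 6.87 in LMPP and was called under all 24 alternatives (adjusted p = 0.00026).

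Few genes of the endoplasmic reticulum and secretion passed the test. Of 28 measured members 3 rose and 0 fell, the median difference was 0.43, 26 differences were above 0, and 14 were higher at an unadjusted p under 0.05 in limma. Sdf2l1, a chaperone partner, was at 8.86, 9.06 and 8.86 in PreGM GFP- and 8.21, 8.19, 7.9 and 8.01 in LMPP. It rose 1.8-fold (adjusted p = 0.00413). Calr, the chaperone calreticulin, was strongly expressed in both groups and rose 1.54-fold (adjusted p = 0.00977), and Sec61b, part of the channel through which proteins enter the reticulum, rose 1.83-fold (adjusted p = 0.0399). The disulfide isomerase gene P4hb had a difference of 0.82 that was not called (adjusted p = 0.0957). The number of rises in this list fell to 0 with weighted arrays and to 1 with only the 2 groups in the fit or without PreGM GFP- array 3. The call of Sec61b was lost with PreGM GFP- array 1, 2 or 3 or LMPP array 1, 3 or 4 left out (adjusted p = 0.0794 to 0.168), and that of Calr with PreGM GFP- array 3 left out (adjusted p = 0.0721). Of genes outside the lists, 5 were picked after their values were seen. Rpn1, a subunit of the enzyme that adds N-glycans, rose by 0.68, Tmed4, a cargo receptor of early secretory vesicles, by 1.16, the sialic acid synthase Nans by 1.25, Csgalnact2, which starts chondroitin sulfate chains, by 1.19, and the Golgi GDP-fucose transporter Slc35c1 by 0.57. All 5 lost their call with some array left out. For Rpn1 this was so with PreGM GFP- array 1 or 3 or LMPP array 1 or 4 left out (adjusted p = 0.102 to 0.182), and for Tmed4 with PreGM GFP- array 2 or 3 or LMPP array 1 or 2 left out (adjusted p = 0.061 to 0.145). Nans lost it with PreGM GFP- array 1 or LMPP array 2 or 3 left out (adjusted p = 0.0581 to 0.157). Csgalnact2 did so with PreGM GFP- array 1, 2 or 3 or LMPP array 2 or 4 left out (adjusted p = 0.0615 to 0.0953), and Slc35c1 with PreGM GFP- array 1 or 2 or LMPP array 1, 2 or 3 left out (adjusted p = 0.0523 to 0.154). Metabolic genes were called singly, of which Idh1 and Alas1 were picked after their values were seen: Idh1, cytosolic isocitrate dehydrogenase, rose 3.24-fold, Alas1, the first enzyme of heme synthesis outside red cells, rose 2.26-fold, and Fdps of the cholesterol pathway rose 2.35-fold. In glycolysis Pgam1 rose by 0.66 and the lactate dehydrogenase gene Ldhb changed by -1.04, while 15 of 17 members were not called. At an unadjusted p under 0.05 in limma 7 of the 17 were higher and 2 lower, against 4.91% and 3.95% of all genes. The calls of Idh1, Alas1, Fdps, Pgam1 and Ldhb were each lost with only the 2 groups in the fit and with arrays weighted by precision. That of Alas1 was also lost with PreGM GFP- array 1 or 3 left out (adjusted p = 0.0712 to 0.0914), and that of Fdps with PreGM GFP- array 1 or 2 or LMPP array 2 or 3 left out (adjusted p = 0.0516 to 0.11). Likewise the call of Pgam1 was lost with PreGM GFP- array 1, 2 or 3 or LMPP array 1, 2, 3 or 4 left out (adjusted p = 0.059 to 0.155) and that of Ldhb with PreGM GFP- array 2 or 3 or LMPP array 1 left out (adjusted p = 0.0746 to 0.0978).

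Lymphoid priming genes fell in part. Of 20 measured members 3 fell and 0 rose, and the median difference was -0.41. At an unadjusted p under 0.05 in limma 9 were lower and 1 higher, against 3.95% and 4.91% of all genes, so that the 1 of 20 is near the share of all genes. Dntt, the terminal transferase that adds bases at antigen receptor joints, remained high in PreGM GFP-, at 10.54, 10.16 and 9.85, against 11.22, 11.14, 11.67 and 11.74 in LMPP, and fell 2.39-fold (adjusted p = 0.00116). Flt3, whose level was used in the LMPP gate, fell 2.66-fold (adjusted p = 0.00482). Bcl11a, a zinc finger factor needed for lymphoid development, was at 9.19, 8.93 and 9.41 in PreGM GFP- and 10.22, 10.02, 10.44 and 10.56 in LMPP, with narrow ranges in both, and fell 2.2-fold (adjusted p = 2.06e-05). Its call held under all 24 alternatives. Other lymphoid regulators gave differences without a call: Mef2c -0.75 (adjusted p = 0.23), Satb1 -0.73 (adjusted p = 0.108), Ikzf1, which encodes Ikaros, -0.62 (adjusted p = 0.0515) and Notch1 -0.55 (adjusted p = 0.419). The arrays of the groups did not overlap for Mef2c, Satb1, Ikzf1 and Notch1. Over the priming list this held for 7 members that were lower and 1 that was higher, against 7.49% of all genes. The differences of 7 of the 20 members were above 0, up to 0.44. Lax1, an adaptor of lymphocyte receptors, Tox, a nuclear factor of T cell development, and H2-Ob, a modulator of MHC class II loading, fell by 1.19, 1.04 and 0.93, and were picked after their values were seen. Lax1 lost its call with PreGM GFP- array 1 or LMPP array 1 or 4 left out (adjusted p = 0.0545 to 0.117), Tox with PreGM GFP- array 2 or 3 or LMPP array 1 or 3 left out (adjusted p = 0.0617 to 0.166), and H2-Ob with PreGM GFP- array 1, 2 or 3 or LMPP array 1, 3 or 4 left out (adjusted p = 0.0691 to 0.162). Ikzf1 was called in 5 of 24 alternatives, among them without PreGM GFP- array 1 (adjusted p = 0.0118).

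The 21 measured B lymphoid genes gave 0 calls in limma, with 6 higher and 1 lower at an unadjusted p under 0.05. The 1 of 21 is near the 3.95% of all genes that were lower, and 4.91% of all genes were higher. Vpreb1, a chain of the surrogate light chain of pre-B cells, was nevertheless at 11.59, 11.81 and 9.14 in PreGM GFP- and 7.64, 7.36, 9.12 and 6.1 in LMPP. Arrays 1 and 2 of PreGM GFP- were far above all LMPP arrays, array 3 lay just above LMPP array 3, and the difference of 3.29 ± 0.92 (SE) was not called (adjusted p = 0.113). Its partner Igll1 was at 7.93, 7.53 and 7.08 in PreGM GFP- and 6.89, 6.83, 6.85 and 6.81 in LMPP, and Ebf1, the B lineage factor, at 6.31, 6.77 and 5.13 in PreGM GFP- and 5.17, 5.24, 5.43 and 4.7 in LMPP, with PreGM GFP- array 3 again lowest of its group. The groups overlapped for Ebf1, neither gene was called, and 10 of the 21 members had means below the median signal in both groups. Mean levels of the list were 6.58 to 7.05 on the PreGM GFP- arrays and 6.46 to 6.61 on the LMPP arrays, lowest in PreGM GFP- on array 3. Whether B lineage cells in the gate had a part was not tested. T and NK lymphoid genes also gave 0 of 20 calls, with 6 higher and 0 lower at an unadjusted p under 0.05, and without PreGM GFP- array 3 there were 2 rises in that list and 1 in the B lymphoid list. Ccl5, a chemokine of T and NK cells outside these lists that was picked after its values were seen, rose 2.49-fold, with 9.49, 8.93 and 7.82 in PreGM GFP-, array 3 again lowest, and 7.51, 7.32, 7.26 and 7.63 in LMPP, a call lost with PreGM GFP- array 1 left out (adjusted p = 0.0539).

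**Figure D3:**
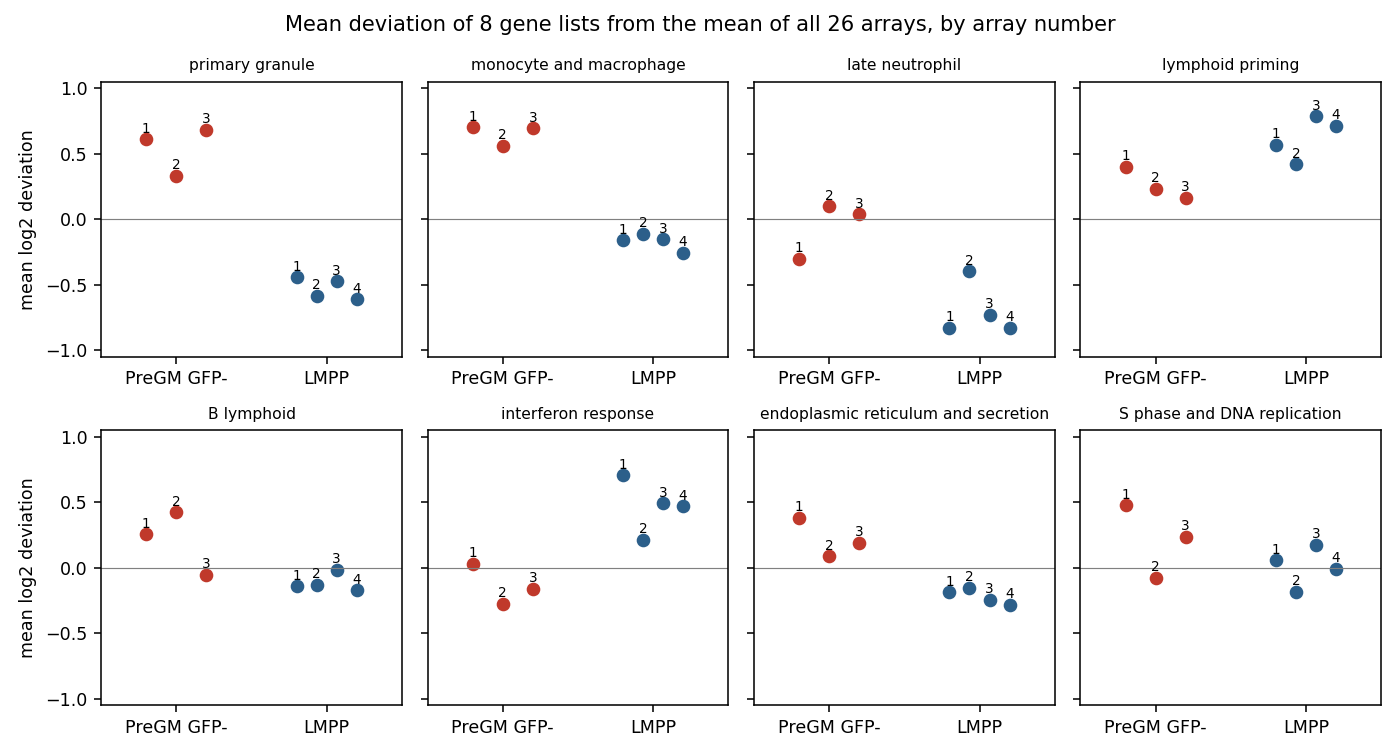
Mean log2 deviation of 8 gene lists from their mean over all 26 arrays (y axis), on each PreGM GFP- array (red, left) and each LMPP array (blue, right), with the array number above each point. The primary granule, monocyte, late neutrophil and secretion lists are higher on every PreGM GFP- array than on any LMPP array. The lymphoid priming list, narrowly, and the interferon list are lower on every PreGM GFP- array. The B lymphoid and S phase lists overlap between the groups. The B lymphoid list is higher on PreGM GFP- arrays 1 and 2 than on array 3, and LMPP array 2 is the highest LMPP array for late neutrophil genes and the lowest for interferon genes.

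Genes of stem cells and multipotency gave 2 falls among 33 measured members and 0 rises, with a median difference of -0.18. At an unadjusted p under 0.05 in limma 10 were lower and 0 higher, against 3.95% and 4.91% of all genes. Hlf, a bZIP factor that marks stem cells and early progenitors, was at 9.13, 8.47 and 8.86 in PreGM GFP- and 10.69, 10.41, 10.66 and 10.33 in LMPP. All PreGM GFP- arrays lay more than 1 unit below the lowest LMPP array, and the gene fell 3.26-fold (adjusted p = 2.22e-06). Msi2, an RNA-binding protein of stem cells, was at 8.87, 8.64 and 9.34 in PreGM GFP- and 9.72, 10.03, 10.42 and 10.16 in LMPP. It fell 2.2-fold (adjusted p = 0.0115). The call of Msi2 was lost with PreGM GFP- array 1 or 2 or LMPP array 3 left out (adjusted p = 0.0537 to 0.0863), which left 1 fall in the list. Meis1 (-0.81, adjusted p = 0.146), Hoxa9 (-0.6, adjusted p = 0.16), Mecom (-0.78, adjusted p = 0.213) and Txnip (-1.02, adjusted p = 0.0976), all high in stem cells, were lower on every PreGM GFP- array than on any LMPP array without a call. Meis1 and Mecom were each called in 1 of 24 alternatives. Over the list, arrays did not overlap for 10 members that were lower and 1 that was higher, against 7.49% of all genes. The differences of 7 of the 33 members were above 0, up to 0.74. Cd34, a surface marker of both populations, was at 11.39, 11.07 and 11.28 in PreGM GFP- and 11.23, 11.15, 11.61 and 11.44 in LMPP, which overlapped.

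Among 32 measured regulators of myeloid fate 1 rose and 0 fell. At an unadjusted p under 0.05 in limma 9 were higher and 2 lower, against 4.91% and 3.95% of all genes. The gene that rose was Id2, whose product binds E proteins and keeps them off DNA. It was at 8.75, 8.6 and 7.12 in PreGM GFP-, where array 3 was the lowest, and 6.48, 5.86, 5.65 and 6.24 in LMPP (adjusted p = 0.00215). Cebpa, which encodes C/EBP alpha, was at 9.14, 8.8 and 9.36 in PreGM GFP- and 8.48, 8.53, 8.12 and 8.36 in LMPP. The arrays did not overlap, but the difference of 0.73 ± 0.19 (SE) was not called (adjusted p = 0.077). Irf8, a factor of monocyte and dendritic fate, was at 9.72, 8.37 and 8.52 in PreGM GFP- and 7.52, 8.13, 7.86 and 7.65 in LMPP, with array 1 of PreGM GFP- well above the other two, and was not called (adjusted p = 0.122). Spi1, which encodes PU.1, overlapped between the groups, at 8.63, 7.58 and 8.07 in PreGM GFP- and 7.89, 7.36, 7.62 and 7.09 in LMPP (adjusted p = 0.602). Runx1 had a difference of 0.54 (adjusted p = 0.213), Zeb2 of 0.52 (adjusted p = 0.24) and Irf2 of -1.15 (adjusted p = 0.187). Zbtb16, the zinc finger factor PLZF of the lymphoid fate list, where 1 of 28 fell and 0 rose, was at 7.53, 6.67 and 8.12 in PreGM GFP- and 6.37, 6.39, 6.37 and 6.6 in LMPP and was not called (1.01, adjusted p = 0.0601), while without PreGM GFP- array 2 its adjusted p was 0.00311. Zbtb16 was called in 5 of 24 alternatives. In the lymphoid fate list 2 were higher and 7 lower at an unadjusted p under 0.05 in limma, against 4.91% and 3.95% of all genes. Of 22 cytokine receptor genes, Flt3 alone was called, with 1 rise (Csf1r) without PreGM GFP- array 2 and 2 falls without LMPP array 2. Csf3r, the receptor for granulocyte colony-stimulating factor, was at 8.54, 8.13 and 8.51 in PreGM GFP- and 8.72, 8.58, 9.16 and 8.9 in LMPP (-0.45, adjusted p = 0.2), with no call. Kit, gated as positive in both, was at 10.16, 9.07 and 10.13 in PreGM GFP- and 10.29, 10.18, 10.31 and 10.3 in LMPP.

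**Figure D4:**
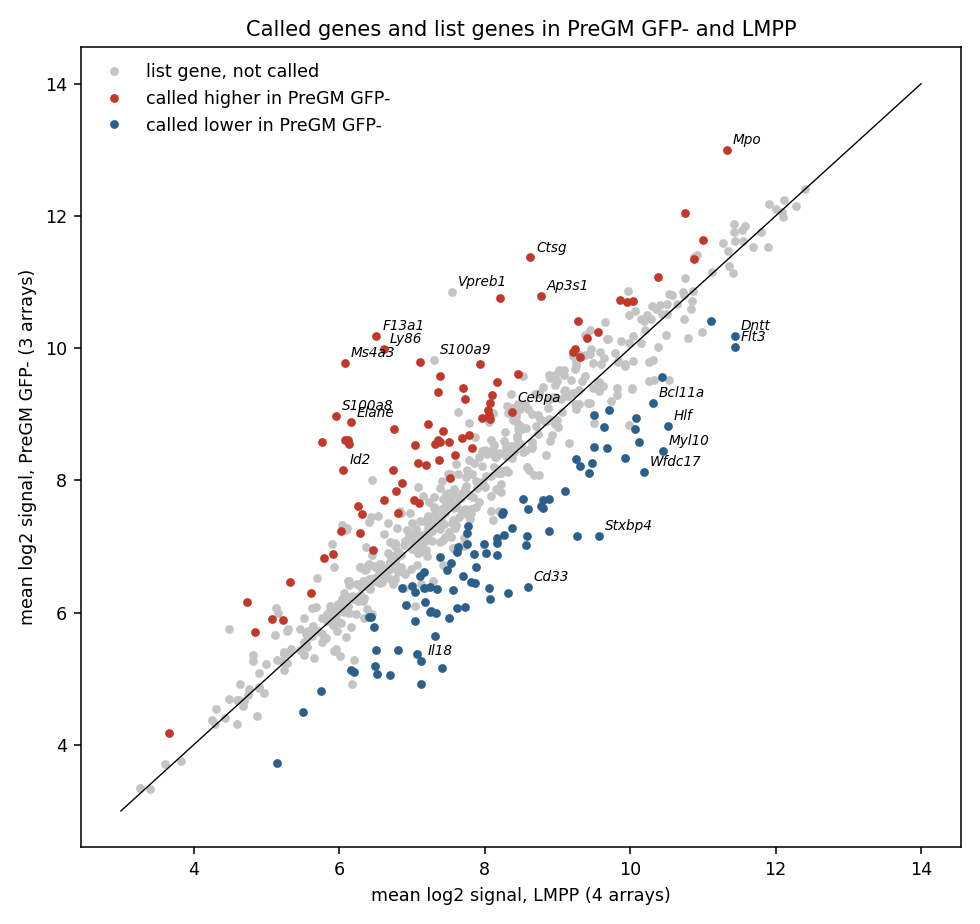
Mean log2 signal in PreGM GFP- (3 arrays, y axis) against that in LMPP (4 arrays, x axis) for all called genes (red higher, blue lower in PreGM GFP-) and for list genes without a call (grey), with the line of equal signal. Mpo lies high in both groups, Ms4a3, F13a1, S100a8 and Elane start near or below 6.61 in LMPP, and Dntt and Flt3 lie below the line but above 10 in PreGM GFP-.

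The genes that fell most belonged to no 1 lineage. Stxbp4, a syntaxin-binding protein, was at 7.89, 6.84 and 6.74 in PreGM GFP- and 9.78, 9.56, 9.19 and 9.78 in LMPP. It fell 5.35-fold (adjusted p = 0.00272). The lowest LMPP array stood more than 1 unit above the highest PreGM GFP- array. Vldlr, the receptor for very low density lipoprotein, was at 7.93, 6.7 and 6.85 in PreGM GFP- and 9.52, 9.01, 9.41 and 9.17 in LMPP, a fall of 4.35-fold (adjusted p = 4.04e-06). Myl10, a myosin regulatory light chain, was at 8.82, 8.1 and 8.41 in PreGM GFP- and 10.52, 11.28, 10.3 and 9.7 in LMPP (fall of 4.02-fold, adjusted p = 0.000506). Gcnt2, the enzyme that branches poly-N-acetyllactosamine chains, was at 8.91, 8.37 and 8.48 in PreGM GFP- and 10.1, 10.11, 10.27 and 10 in LMPP. It fell 2.9-fold (adjusted p = 4.74e-06). For all 4 every PreGM GFP- array was below every LMPP array, which the rule for the largest falls required of Stxbp4, Vldlr and Myl10. Gcnt2 was picked after its values were seen, as were Wfdc18, Tlr7, Il12a and Cmah, given next.

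Cd33, a sialic acid-binding receptor, was at 6.47, 5.92 and 6.78 in PreGM GFP- and 8.84, 7.88, 8.74 and 8.91 in LMPP, with LMPP array 2 below the other 3, and changed by -2.2 (adjusted p = 1.03e-05). Ccl3, the inflammatory chemokine also called MIP-1 alpha, was at 6.45, 6.55 and 5.87 in PreGM GFP-, all below the median signal, and 8.47, 8.2, 8.29 and 8.3 in LMPP, in a narrow band (adjusted p = 2.22e-06). Wfdc17, which encodes a small secreted protein with a whey acidic protein domain, was at 8.17, 8.83 and 7.37 in PreGM GFP- and 10.34, 10.36, 10.01 and 10.06 in LMPP. It fell 4.2-fold (adjusted p = 0.0051), and its relative Wfdc18 changed by -1.55 (adjusted p = 9.42e-05). Il18, a cytokine of the interleukin 1 family, was at 5.45, 5.55 and 4.81 in PreGM GFP- and 7.7, 7.09, 6.6 and 7.14 in LMPP (adjusted p = 0.000271). Tnip3, an inhibitor of NF-kappaB signalling, was at 4.96, 4.48 and 5.31 in PreGM GFP- and 8.03, 6.01, 7.2 and 7.27 in LMPP, where the LMPP arrays spread over 2 units with array 2 lowest (adjusted p = 0.000272). Tlr7, a sensor of single-stranded RNA, Il12a, a subunit of interleukin 12, and Cmah, which makes N-glycolylneuraminic acid, changed by -1.38, -1.09 and -1.42. The calls were lost, for Il12a, with PreGM GFP- array 2 or 3 or LMPP array 1, 3 or 4 left out (adjusted p = 0.0977 to 0.204) and for Cmah with PreGM GFP- array 2 left out (adjusted p = 0.0647). Tspan6, a tetraspanin, changed by -2.26 (adjusted p = 0.0134), Myof, a membrane repair protein, by -1.65 (adjusted p = 2.06e-05), Gsta4, a glutathione transferase, by -1.69 (adjusted p = 0.00215) and Kynu, an enzyme of tryptophan breakdown, by -1.65 (adjusted p = 0.0321). The call of Kynu was lost with PreGM GFP- array 1, 2 or 3 or LMPP array 3 or 4 left out (adjusted p = 0.0884 to 0.115), and that of Tspan6 with PreGM GFP- array 2 or 3 left out (adjusted p = 0.0529 to 0.098). The promoters of the 3 largest falls are given for comparison with those of the rises. The Stxbp4 window (chr11:90638059-90638358, minus strand) held 1 match to the Runx motif.
Stxbp4: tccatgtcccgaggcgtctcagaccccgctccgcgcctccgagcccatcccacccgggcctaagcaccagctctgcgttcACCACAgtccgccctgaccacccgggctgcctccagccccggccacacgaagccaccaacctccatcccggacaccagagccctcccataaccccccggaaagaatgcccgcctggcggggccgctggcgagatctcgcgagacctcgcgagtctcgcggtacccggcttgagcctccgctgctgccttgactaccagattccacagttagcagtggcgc
In the Tspan6 window (chrX:133898380-133898679, minus strand) 1 match to the PU.1 motif lay in a repeat, and matches to the E-box and C/EBP motifs overlapped.
Tspan6: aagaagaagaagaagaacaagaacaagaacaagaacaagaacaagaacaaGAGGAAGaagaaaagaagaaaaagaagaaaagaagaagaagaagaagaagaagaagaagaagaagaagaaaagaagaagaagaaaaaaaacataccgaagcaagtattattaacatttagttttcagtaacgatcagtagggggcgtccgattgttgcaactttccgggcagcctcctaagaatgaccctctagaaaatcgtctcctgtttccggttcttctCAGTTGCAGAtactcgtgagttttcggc
The Tnip3 window (chr6:65590148-65590447, plus strand) held 1 match each to the PU.1 and Runx motifs.
Tnip3: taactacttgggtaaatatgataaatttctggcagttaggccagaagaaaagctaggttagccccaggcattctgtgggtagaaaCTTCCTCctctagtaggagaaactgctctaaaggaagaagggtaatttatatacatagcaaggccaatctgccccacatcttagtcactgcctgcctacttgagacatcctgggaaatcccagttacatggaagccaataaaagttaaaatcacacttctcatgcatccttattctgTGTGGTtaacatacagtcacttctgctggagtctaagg

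The probe set of the microRNA gene Mir181b-2 was at 6.04, 6.16 and 6.42 in PreGM GFP- and 8.46, 8.24, 7.98 and 7.59 in LMPP, with no overlap and a change of -1.86 (adjusted p = 0.0399). It was picked after its values were seen, its call was lost in 13 of 24 alternatives, among them with PreGM GFP- array 1, 2 or 3 or LMPP array 1, 2 or 3 left out (adjusted p = 0.0832 to 0.138), and the array reads RNA of the gene rather than the mature strands. The miR-181 family is known for roles in lymphoid development. The mature strands of the hairpin (chromosome 2, plus strand, RefSeq, GRCm38.p6) are printed with the seed, bases 2 to 8, in capitals.
mmu-miR-181b-5p: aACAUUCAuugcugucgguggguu
mmu-miR-181b-2-3p: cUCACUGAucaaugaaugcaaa

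Interferon response genes fell in part in PreGM GFP-. Of 23 measured members 5 fell and 0 rose, the median difference was -0.37, 22 differences were below 0, and 12 were lower at an unadjusted p under 0.05 in limma. Rtp4, an interferon-induced chaperone of receptors, was at 9.02, 7.95 and 8.07 in PreGM GFP- and 10.23, 9.94, 9.75 and 9.79 in LMPP. It fell 3.0-fold (adjusted p = 0.0359). Oas2, which makes the oligoadenylates that activate RNase L, was at 6.57, 7.1 and 7.05 in PreGM GFP- and 8.1, 7.88, 8.3 and 7.81 in LMPP. It fell 2.17-fold (adjusted p = 0.000322), a call that held under all 24 alternatives. Ddx58, the RNA sensor RIG-I, fell 2.42-fold, Oasl2 fell 2.34-fold, and Irf7, a regulator of interferon production, changed by -0.73 with a PreGM GFP- mean below the median signal. Ifit3 was spread widely among the LMPP arrays, at 7.55, 5.09, 6.27 and 5.79, against 4.7, 4.94 and 5.13 in PreGM GFP-, and was not called. Outside the list the interferon-induced GTPase gene Iigp1, at 5.61, 5.88 and 5.46 in PreGM GFP- and 7.64, 6.66, 7.17 and 7.8 in LMPP, was among the 15 largest falls (adjusted p = 0.000111), and Epsti1 and Ddx60, picked after their values were seen, changed by -1.16 and -1.35. The mean level of the 23 genes was 7.21 to 7.52 on the PreGM GFP- arrays and 7.70 to 8.20 on the LMPP arrays, so the ranges did not meet. The count of 5 fell to 1 without PreGM GFP- array 2, without LMPP array 1, without LMPP array 3 and with weighted arrays. It fell to 2 without PreGM GFP- array 3, without LMPP array 4, with centred arrays and with only the 2 groups in the fit, and to 3 without PreGM GFP- array 1, while without LMPP array 2 it was 6. By gene, the call of Rtp4 was lost with PreGM GFP- array 2 or 3 or LMPP array 1, 2, 3 or 4 left out (adjusted p = 0.0677 to 0.179), and that of Ddx58 with PreGM GFP- array 2 or 3 or LMPP array 1 or 3 left out (adjusted p = 0.0628 to 0.124). Oasl2 lost its call with PreGM GFP- array 1, 2 or 3 or LMPP array 1, 3 or 4 left out (adjusted p = 0.071 to 0.131), and Irf7 with PreGM GFP- array 1 or 2 or LMPP array 1, 3 or 4 left out (adjusted p = 0.0662 to 0.14). Epsti1 lost its own with PreGM GFP- array 2 or LMPP array 1, 3 or 4 left out (adjusted p = 0.0746 to 0.21), and Ddx60 with PreGM GFP- array 2 or 3 or LMPP array 3 or 4 left out (adjusted p = 0.117 to 0.129).

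Other programmes gave few calls or none. Of 30 S phase genes, 25 G2 and M phase genes, 17 genes of G1 control and 29 of ribosome biogenesis, 0 were called in limma, with 5, 4, 4 and 6 higher and 0 lower in each at an unadjusted p under 0.05 (4.91% and 3.95% of all genes), and no alternative, limma-trend included, called any of them. Of 15 regulators that act with Gata1, 0 were called, and 2 were lower at an unadjusted p under 0.05. The erythroid list had 1 fall among 21, that of the carbonic anhydrase gene Car2, at 8.62, 8.65 and 8.26 in PreGM GFP- and 9.79, 8.87, 9.62 and 9.74 in LMPP (adjusted p = 0.0448), a call lost in 17 of 24 alternatives, among them with PreGM GFP- array 1, 2 or 3 or LMPP array 1, 3 or 4 left out (adjusted p = 0.086 to 0.179). The megakaryocyte list had 1 rise among 17, Cxcr2, described above. Itga2b, the CD41 chain that the PreGM gate excludes, was at 7.62, 7.45 and 7.43 in PreGM GFP- and 7.05, 7.03, 6.93 and 6.91 in LMPP and was not called (adjusted p = 0.158). Among 26 homing and adhesion genes Ccr2 rose and the endothelial sialomucin gene Emcn fell, by 1.34, which was also the only call among 20 genes of stroma and endothelium and was lost with PreGM GFP- array 2 or 3 or LMPP array 1, 3 or 4 left out (adjusted p = 0.0612 to 0.179). Eosinophil genes (10), MHC class I genes (8) and immediate early and stress genes (23) gave 0 calls in limma, with 0, 1 and 2 higher and 0, 0 and 2 lower at an unadjusted p under 0.05, and 0 calls under every alternative. Over all genes the shares were 4.91% and 3.95%. Of the lysosome and oxidase list 1 of 23 rose, Npc2, a cholesterol carrier of lysosomes, by 0.75, a call lost with PreGM GFP- array 1 left out (adjusted p = 0.0527). In that list 8 were higher and 0 lower at an unadjusted p under 0.05, with a median difference of 0.23.

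The levels of the called genes were then read across all 8 groups. Beside the 4 groups described, these were reporter-positive PreGM and GMP cells (PreGM GFP+ and GMP GFP+, gated otherwise like their reporter-negative counterparts), pre-megakaryocyte-erythroid progenitors (PreMegE, Sca1-, FcgRII/III-, CD150+ and CD105-) and common lymphoid progenitors (CLP, B220-, low for Sca1 and cKit, Flt3+ and IL-7Ra+), with 3 arrays each. For 46 of the 79 genes that rose the mean of GMP GFP- was higher still than that of PreGM GFP-, and for 66 of the 95 that fell it was lower still. Ms4a3 averaged 12.07 in GMP GFP-, Elane 11.47 and S100a8 11.98, against 9.78, 8.88 and 8.98 in PreGM GFP-. PreGM GFP- had the highest mean of the 8 groups for 21 of the 79 rises and the lowest for 12 of the 95 falls, while LMPP had the lowest mean for 19 of the 79 rises and the highest for 48 of the 95 falls. The mean of PreGM GFP+ lay on the same side of LMPP as PreGM GFP- for 61 of the 79 rises and 90 of the 95 falls, and that of CLP for 50 and 79. All these counts use the same PreGM GFP- and LMPP means by which the genes were called. That by itself makes these groups extreme more often and GMP GFP- further out less often. It also places other groups on the PreGM GFP- side of LMPP more often. No share over all genes is given beside them, so they are not read as likeness between groups. Among the rises where PreGM GFP+ lay below LMPP were 3 monocyte genes, with means of 6.25 for F13a1, 5.69 for Ly86 and 5.61 for Ccr2. In CLP they averaged 8.65, 10.29 and 7.9, above LMPP. Cpa3 and Mcpt8 were highest in GMP GFP+, at 11.46 and 12.24, and Cd33 averaged 8.35 in CLP, 6.44 in HSC GFP- and 8.59 in LMPP. These are descriptions with no test.

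**Figure D5:**
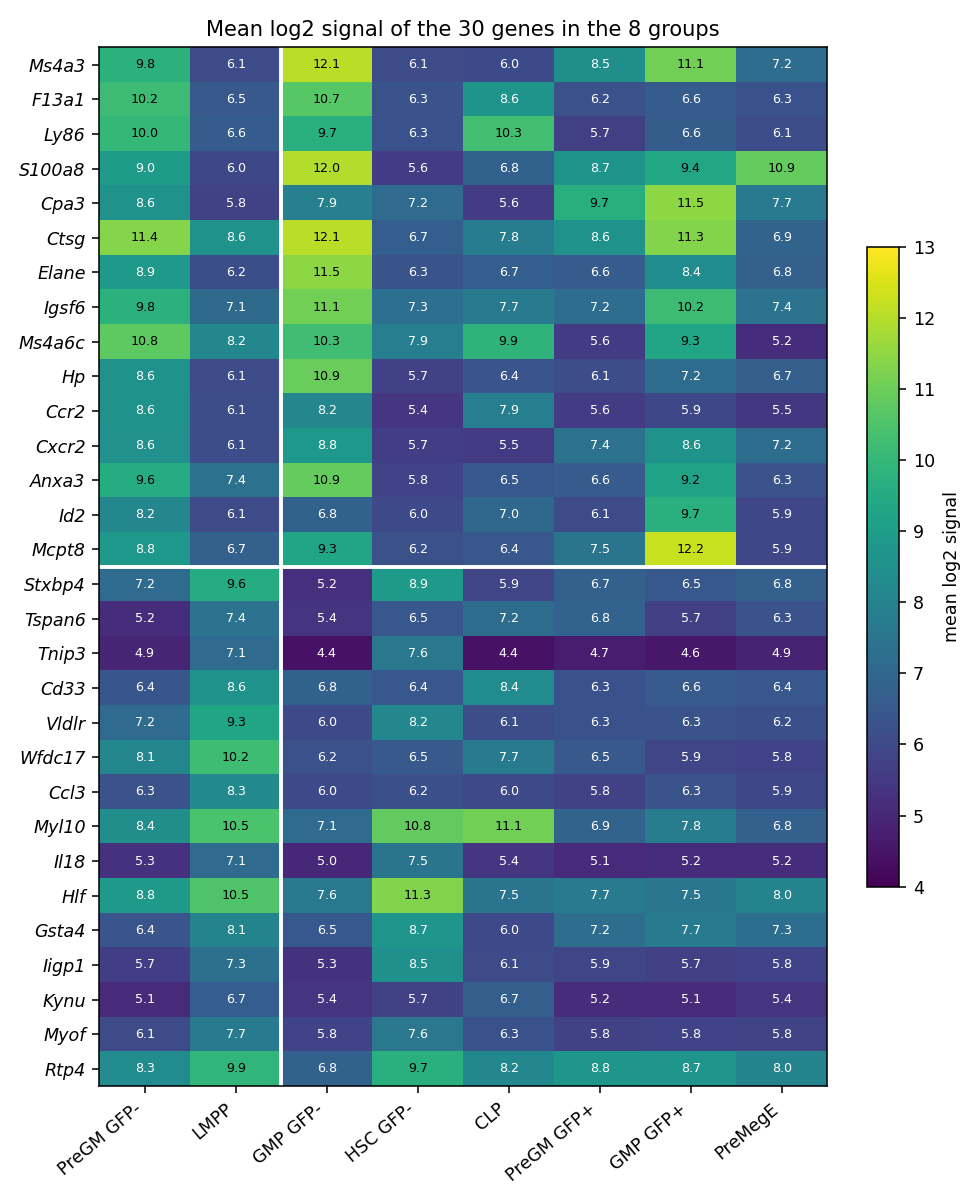
Mean log2 signal (colour and number) of the 15 largest rises (upper rows) and 15 largest falls (lower rows) in the 8 groups (columns, 3 or 4 arrays each), with PreGM GFP- and LMPP at the left and GMP GFP- and HSC GFP- next to them. Genes of the primary granule list such as Ms4a3, Ctsg and Elane reach their highest means in GMP GFP-, while Wfdc17 and Ccl3 stand out in LMPP among all 8 groups.

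The pair GMP GFP- and HSC GFP- was then set beside PreGM GFP- and LMPP. The pairs share no array, though 1 fit estimated the spread for both. Between GMP GFP- and HSC GFP-, 1415 genes were called higher (7.1%) and 1158 lower (5.81%). Of the 79 rises in PreGM GFP-, 59 were also higher in GMP GFP- than in HSC GFP-, which is 74.7% of the PreGM GFP- rises and 4.17% of those of GMP GFP-. Of the 95 falls 60 were also lower, which is 63.2% and 5.18% of the 2 lists. The 59 fell to 35 without PreGM GFP- array 1. The 60 fell to 26 without PreGM GFP- array 2, 35 without LMPP array 1, 30 without LMPP array 3, 37 without LMPP array 4, 40 without PreGM GFP- array 3 and 37 with centred arrays. For the primary granule list 22 of 25 members were higher in GMP GFP-, with a median difference from HSC GFP- of 2.50, and for the stem cell list 25 of 33 were lower, with a median of -0.86. The interferon list had 10 of 23 lower and 1 higher there. Dntt and Ccl3 were not called there, with differences of -0.02 (adjusted p = 0.969) and -0.2 (adjusted p = 0.589) between GMP GFP- and HSC GFP-. In all, 4 rises were called the other way in that pair, namely Slc18a2 at -3.2, Apoe at -1.02, Pank1, a kinase of coenzyme A synthesis, at -0.75 and the nuclear factor gene Dach1 at -0.69, where PreGM GFP- had exceeded LMPP by 1.42, 1.02, 0.9 and 1.09. No fall was called the other way. The call of Pank1 in PreGM GFP- was lost with PreGM GFP- array 1 or 2 or LMPP array 2 left out (adjusted p = 0.0543 to 0.112), and that of Dach1 with PreGM GFP- array 1 left out (adjusted p = 0.0897). All but Slc18a2 of these 4 also lost their call with only the 2 groups in the fit and with arrays weighted by precision.

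Motif matches were counted over all promoters of the RefSeq table to read the printed windows against. GAGGAAG, the PU.1 motif, matched on either strand in 25.4% of the 67 promoters of genes that rose and 17.8% of the 73 of genes that fell, against 13.5% of 27025 promoters of all genes. TTGCNNA, the C/EBP motif, matched in 38.8%, 31.5% and 37.1% of them in that order. TGTGGT for Runx matched in 14.9%, 21.9% and 16.9%, AACGG for Myb in 14.9%, 15.1% and 17.7%, and CAGNTG for the E-box in 43.3%, 49.3% and 51.1%. Of the 11 primary granule genes that rose, 8 had a promoter here. Of these 8, 4 held the PU.1 motif, 4 the C/EBP motif, 3 the E-box, 2 the Runx motif and 2 the Myb motif. A match is a stretch of letters and not a bound site, and the shares were not tested.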

How the data were processed

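RNA of each sorted population was hybridised to Affymetrix Mouse Gene 1.1 ST arrays, 26 in all. The deposited log2 signals were made by the authors with RMA in oligo, per the submitters' processing notes, which give no version or step; base 2 is taken from the range of values. Raw intensities were not analysed here. Of 35556 probe sets, 21789 named 1 gene through a GEO annotation table of an earlier version of this array design, 1621 named several and 12146 none. A probe set that the table does not list is unnamed here, which does not mean that it has no gene. The probe set with the highest mean over all arrays stood for each of the 999 genes with several, which left 19938 genes. limma 3.58.1 in R 4.3.3 was fitted to all 26 arrays with 1 coefficient per group, tested on simulated data first. Arrays have no read depth, and their number limits the precision.

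The members, the gene lists and the tests were chosen with earlier results of these data known. Named were the 15 largest rises and falls among called genes whose arrays did not overlap, passing over model, clone and RIKEN symbols, small RNAs, olfactory receptors and antigen receptor segments, then members of the lists. Genes outside both are said to be picked after their values were seen. The alternatives were another set of arrays in the fit, centring, quantile normalization, a filter on low signal, other handling of probe sets, limma-trend, array weights, a replicate block, a covariate of Y-linked genes and each array left out in turn.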

Additional observations from a re-analysis of the deposited data

Results flagged for a closer look

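In 8 of 122 named genes, 1 of the 4 LMPP arrays lay apart from the other 3 by more than Dixon's 95% limit, and chance sets apart about 1 in 20 such groups. On LMPP array 2, S100a9 was at 10.06, Ngp at 7.96, Cd33 at 7.88 and Kit at 10.18. S100a9 and Ngp are neutrophil genes and were higher there than on the other LMPP arrays. Cd33 and Kit were lower there but above the median signal, and Kit was only slightly lower. On LMPP array 1, Tspan6 was at 7.72, Mpeg1, a pore-forming protein of macrophages, at 8.58, and Satb1 at 10.71. On LMPP array 4, Zbtb16 was at 6.6. No group of 3 arrays, PreGM GFP- among them, was examined in this way.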

How the results depend on the processing

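Of the 30 genes with the largest changes, 18 were called under all 24 alternatives, 9 lost their call when arrays were weighted by precision, 3 lost it with only the 2 groups in the fit, and 0 reversed. Those 9 were S100a8, Ms4a6c, Ccr2, Mcpt8, Tspan6, Wfdc17, Gsta4, Kynu and Rtp4, and those 3 Cxcr2, Id2 and Tnip3. Outside the 30, Flt3, Prtn3 and Sdf2l1 lost their call only when arrays were weighted. Dntt and Hdc lost it only with the 2 groups alone, and Tlr7, Apoe and Idh1 under both. The 79 rises and 95 falls became 33 and 33 with only the 2 groups in the fit, and 27 rises and 20 falls were then shared with the comparison of GMP GFP- and HSC GFP-. Weighting gave 19 and 27, of which 16 and 20 were shared. Centring gave 60 falls, of which 37 were shared, with a median difference of all genes of 0.07, against 0.01 as deposited. Over the arrays left out in turn, rises numbered 49 to 97, falls 45 to 105, shared rises 35 to 71 and shared falls 26 to 64. With the replicate number as a block there were 65 rises and 73 falls, of which 50 and 41 were shared. Deviations of arrays with the same number correlated at 0.22, 0.33 and 0.10, and those of arrays with different numbers at -0.29 to 0.16. Each PreGM GFP- array correlated most with the LMPP array of its own number, for array 3 by a small margin (0.0996 against 0.0952). The labels do not say whether a number links arrays of different groups, so the main fit did not pair them. Whether arrays of the same number shared a batch was not tested. The cause of the changes in count under the alternatives was not tested. Centring turned the sign of the median of the Gata1-associated and cholesterol lists, and quantile normalization that of the cholesterol and homing lists. Signals below the median were not shown to exceed background.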
